A study of Homo sapiens with 12 samples.

Results

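The simple epithelial keratins *KRT7*, *KRT8*, *KRT18*, *KRT19* and *KRT20* were followed by RNA-seq in 2 human pancreatic adenocarcinoma cell lines. They were taken from the deposited table by gene symbol, as 5 of the 23346 genes listed, and all 5 were found. SW1990 and CFPAC-1 are established lines. Each was stained with the antibody GCTM-5, which binds a glycoprotein complex at the cell surface, and sorted into antigen positive and antigen negative cells, with 3 samples in each of the 4 groups. All groups were cultured tumour cells with no drug or genetic change named in the labels, and, per the labels, the sorting gates took in highly positive cells and negative cells alone. The epitope is carried on a glycoprotein complex, so no transcript served as a check of the sort.

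Keratins form intermediate filaments only as pairs, in which a type II keratin joins a type I keratin. *KRT7* and *KRT8* encode type II keratins, and *KRT18*, *KRT19* and *KRT20* encode type I keratins. KRT8 and KRT18 are the first pair made in simple, single-layered epithelia, KRT7 and KRT19 are added in ducts, and KRT20 marks intestinal and urothelial cells. Pathologists read KRT7, KRT19 and KRT20 on tumour sections, where pancreatic ductal adenocarcinoma is usually positive for the first and second of these.

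The values are RPKM, read counts divided by gene length and by library size, so that levels of different genes can be set side by side. Library totals, recovered from the values as whole reads to within 0.01 of a read, ran from 9969697 to 26159330 reads. The lowest total belonged to the third positive CFPAC-1 sample, which also had the lowest mean Pearson correlation with its own group (0.968, against up to 0.985 elsewhere). Markers of the epithelial cell (*EPCAM*, *CDH1*, *CLDN4*, *CLDN7* and *ESRP1*) were present in all samples. Markers of pancreatic acinar and endocrine cells were at or near 0, and the fibroblast markers *COL3A1*, *DCN* and *THY1* had at most 3 reads in every sample. Other such markers had reads in negative SW1990 cells, 318 to 865 for *LUM*, 404 to 481 for *COL1A1* and 195 to 217 for *PDGFRB*, as did the endothelial marker *CDH5* (1202 to 1439). *COL1A1* also had 73 to 256 reads in the other groups, and *LUM* 75 to 112 in positive SW1990 cells. Of the leukocyte markers, *PTPRC* and *CD3E* had at most 3 reads in every sample. Over all samples *CD68* had 545 to 6985 reads, *LYZ* 24 to 2550 and *CD14* 8 to 378. Of the duct markers, *CFTR* was at 0 in all SW1990 samples.

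*KRT8* was among the most abundant transcripts of both lines. In negative SW1990 cells it stood at 798.6, 763.0 and 601.8 RPKM, and in positive SW1990 cells at 2158, 1700 and 1782 RPKM. In CFPAC-1 the 3 negative samples held 1553, 1831 and 1725 RPKM and the 3 positive samples 2547, 2462 and 3319 RPKM. In each line every positive sample lay above every negative sample, and negative SW1990 cells were the lowest of the 4 groups. *KRT8* took 0.136% to 0.181% of all reads in negative SW1990 libraries and 0.558% to 0.752% in positive CFPAC-1 libraries. Ordered by RPKM, it was gene 26 to 38 in the former and gene 2 to 5 in the latter.

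*KRT18*, whose product is the usual partner of KRT8, had the same order of groups at a lower level. It measured 451.1, 441.0 and 358.2 RPKM in negative SW1990 cells and 1126, 918.6 and 1003 RPKM in positive SW1990 cells. Negative CFPAC-1 cells held 711.5, 809.2 and 761.7 RPKM, and positive CFPAC-1 cells 1234, 1194 and 1271 RPKM. Here too positive and negative samples of a line did not overlap.

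*KRT19*, the small type I keratin of ducts, differed most between the lines among the 4 members detected in both. Negative SW1990 cells held 348.6, 353.6 and 353.4 RPKM and positive SW1990 cells 1020, 1110 and 1007 RPKM. Negative CFPAC-1 cells held 2654, 3048 and 2862 RPKM and positive CFPAC-1 cells 2331, 2713 and 2744 RPKM. The SW1990 groups were apart from each other and from CFPAC-1, whereas the positive and negative CFPAC-1 samples overlapped.

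*KRT7*, the type II keratin of ductal epithelia, had the narrowest range of levels of the 4 members detected in both lines. Its values were 313.8, 305.3 and 237.7 RPKM in negative and 279.8, 346.2 and 319.1 RPKM in positive SW1990 cells. In CFPAC-1 they were 189.3, 171.6 and 171.6 RPKM in negative and 276.3, 257.5 and 471.6 RPKM in positive cells. The positive and negative samples overlapped in SW1990 and were apart in CFPAC-1. The highest value, 471.6 RPKM, came from the library with the lowest total.

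*KRT20* was seen in CFPAC-1 alone. No read of it was found in any of the 6 SW1990 samples, a count of 0 that allows up to 3 reads per library, or 0.0714 to 0.0979 RPKM. Negative CFPAC-1 cells held 6.06, 17.6 and 15.5 RPKM (213, 693 and 558 reads) and positive CFPAC-1 cells 2.33, 2.60 and 4.56 RPKM (110, 88 and 82 reads). The limit covers counting error alone, as PCR copies of a molecule are counted more than once. All negative CFPAC-1 samples lay above all positive ones, the opposite order to *KRT7*, *KRT8* and *KRT18* in that line.

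**Figure D1:**
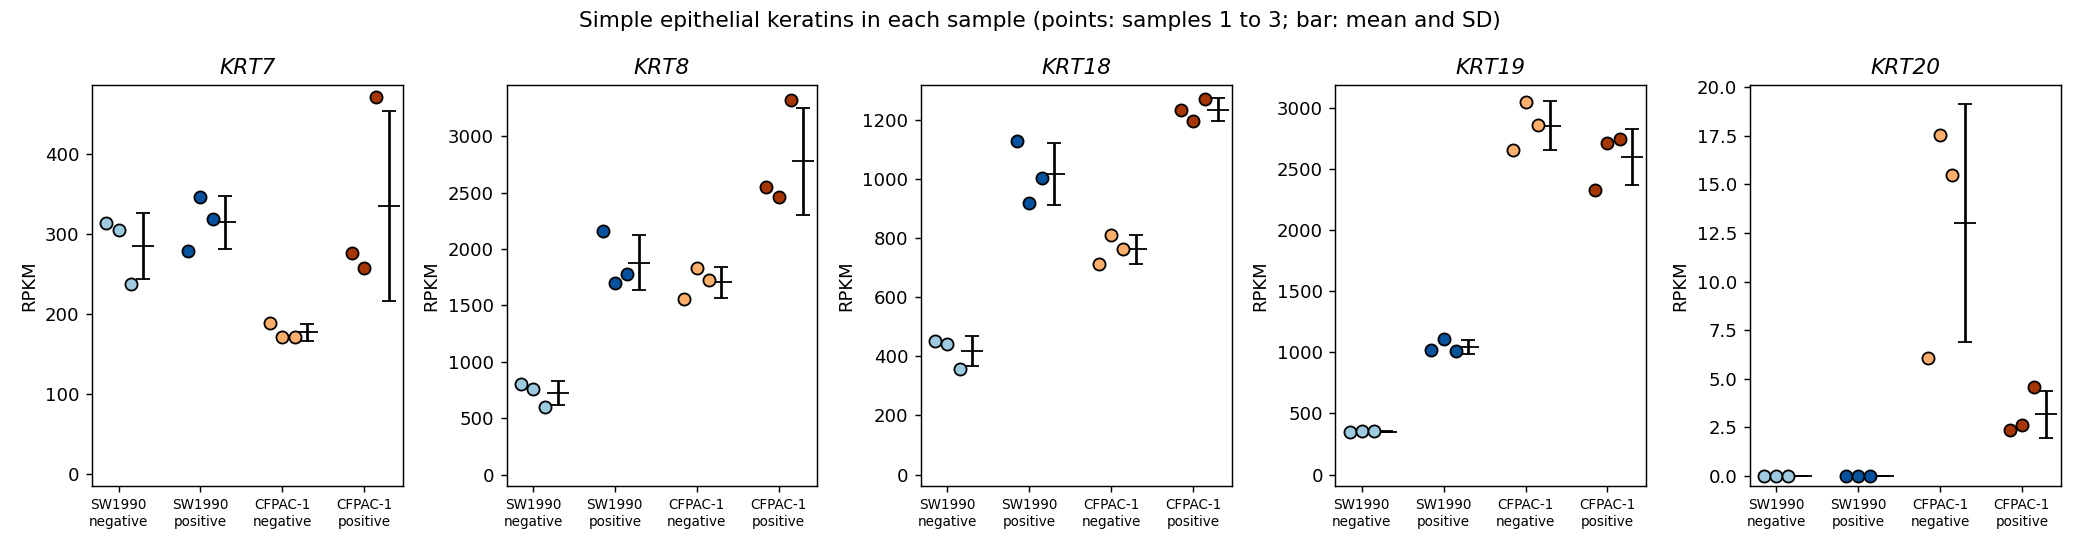
RPKM (y axis, linear) of the 5 simple epithelial keratins in the 3 samples of each of the 4 groups, with the mean and SD as bars beside the points. *KRT8* and *KRT18* are higher in the positive cells of both lines, *KRT19* in those of SW1990, *KRT7* in those of CFPAC-1, and *KRT20* is at 0 in SW1990 and lower in positive CFPAC-1 cells.

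The bases before the *KRT20* start are shown because this is the member with reads in one line and none in the other. RefSeq promoter windows (GRCh38.p14) were given for 2 of the 5 members, *KRT8* and *KRT20*, and were not used here for *KRT7*, *KRT18* and *KRT19*. The *KRT8* window lies 23485 bases from the start of the gene in the GENCODE annotation and is not shown. The *KRT20* window matched GRCh37 once, on the minus strand, and its 250 upstream bases (chr17:39041495-39041744) end at the annotated start of the gene. They are written 5′ to 3′, with no capitals because none of the motifs searched lies in them.

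KRT20 upstream: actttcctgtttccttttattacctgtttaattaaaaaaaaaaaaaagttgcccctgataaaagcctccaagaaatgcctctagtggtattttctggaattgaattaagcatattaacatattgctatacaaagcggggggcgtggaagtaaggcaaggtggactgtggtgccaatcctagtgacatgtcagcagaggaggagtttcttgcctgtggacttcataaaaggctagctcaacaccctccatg

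KRT20 bases 21 to 50: atcctgaagctaCAGGTGctccctcctgga

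The shorter stretch lies just inside the gene (chr17:39041445-39041474 of GRCh37, minus strand), and its capitals mark the only match of the 3 motifs searched on both strands from 250 bases before to 50 bases after the start. These were CACCTG, the E-box bound by ZEB and Snail factors, AACCGGTT, bound by grainyhead-like factors, and TGACTCA, bound by AP-1. The match is CACCTG on the opposite strand, 33 bases into the gene. Of the 35116 RefSeq windows of this length, 20.6% hold CACCTG, 0.134% AACCGGTT and 4.95% TGACTCA, overlap between motifs not being considered. The *KRT8* window held none of the 3.

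The order of the members by level differed between the groups. Negative SW1990 cells ran from *KRT8* (721 ± 105 RPKM, SD, n = 3) through *KRT18* (417 ± 51.0) and *KRT19* (352 ± 2.86) to *KRT7* (286 ± 41.7), and no neighbours in that order overlapped. In positive SW1990 cells *KRT8* (1880 ± 244 RPKM) was followed by *KRT19* (1046 ± 56.1) and *KRT18* (1016 ± 104), which overlapped, and then by *KRT7* (315 ± 33.4). *KRT19* led in negative CFPAC-1 cells, at 2854 ± 197 RPKM, before *KRT8* (1703 ± 141), *KRT18* (761 ± 48.9), *KRT7* (178 ± 10.2) and *KRT20* (13.0 ± 6.13), with no overlap of neighbours. In positive CFPAC-1 cells *KRT8* (2776 ± 472 RPKM) and *KRT19* (2596 ± 230) overlapped at the top, above *KRT18* (1233 ± 38.5), *KRT7* (335 ± 119) and *KRT20* (3.16 ± 1.22).

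The first question of the design was how antigen positive cells differ from negative cells of the same culture. In SW1990, 3 of the 4 members with reads rose in positive cells, *KRT19* 2.97-fold, *KRT8* 2.61-fold and *KRT18* 2.44-fold. *KRT7*, at 1.11-fold, did not pass the test. Changes were fitted with limma on log2(RPKM + 0.1) over 16236 genes, and the calls used a p adjusted by Benjamini-Hochberg, under 0.05. By this rule 11.3% of all genes were called higher in positive SW1990 cells and 16.9% lower. *KRT19* rose by 1.57 (SE 0.11, limma adjusted p = 1.08e-06), *KRT8* by 1.39 (SE 0.16, limma adjusted p = 5.55e-05) and *KRT18* by 1.29 (SE 0.12, limma adjusted p = 8.87e-06). For *KRT7* the log2 fold change was 0.15 (95% interval -0.29 to 0.58, limma adjusted p = 0.64). With a 2-fold threshold added, the same 3 members were called higher, against 4.66% of all genes. The paper describes the samples as coming from triplicate sorts. Neither it nor the labels say whether the 3 samples of a group came from separate cultures, so these p-values measure the spread between these samples.

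The epithelial markers moved with the keratins in SW1990. Their summed level was 83.0 to 134 RPKM in negative and 709 to 981 RPKM in positive cells, and all 5 of 5 were called higher. The fibroblast list summed to 12.7 to 22.6 RPKM in negative and 3.90 to 4.86 RPKM in positive SW1990 cells, with *LUM*, *PDGFRB* and *COL1A1* of its 7 genes called lower. The endothelial list summed to 14.8 to 18.8 RPKM in negative and 1.48 to 2.05 RPKM in positive cells, with *KDR* at no more than 3 reads. *CDH5*, the cadherin of endothelial cells, made up most of that sum and fell from 15.6 ± 1.83 to 1.33 ± 0.255 RPKM (SD, n = 3), by 3.46 on the log2 scale (limma adjusted p = 2.52e-07). The leukocyte list summed to 35.6 to 49.9 RPKM and 16.2 to 34.8 RPKM, with *PTPRC* and *CD3E* at no more than 3 reads. Of its 3 genes compared, *CD68* fell from 42.0 ± 7.27 to 21.7 ± 9.56 RPKM (limma adjusted p = 0.00883) and *CD14* by 1.97 on the log2 scale (limma adjusted p = 0.000137). The part of these lists in the keratin result was not tested, and in sorted bulk RNA fewer expressing cells cannot be told apart from less RNA per cell.

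In CFPAC-1, *KRT7*, *KRT8* and *KRT18* rose in positive cells and *KRT20* fell. The rises were smaller than 2-fold, 1.82-fold for *KRT7* and 1.62-fold for both *KRT8* and *KRT18*. Of all genes, 22.3% were called higher and 14.2% lower in this comparison, so that 61.1% of calls were higher, against 47.8% with samples centred on their median. The log2 fold change was 0.86 for *KRT7* (SE 0.20, limma adjusted p = 0.00566), 0.70 for *KRT8* (SE 0.16, limma adjusted p = 0.00649) and 0.70 for *KRT18* (SE 0.12, limma adjusted p = 0.00103). *KRT20* fell by 1.93 (SE 0.37, limma adjusted p = 0.00185) and was the only member past the 2-fold threshold, against 4.55% of all genes called lower and 5.9% higher by that rule. *KRT19*, the most abundant member of the negative cells, changed by -0.14 on the log2 scale (95% interval -0.38 to 0.11, limma adjusted p = 0.361). Without the third positive sample the *KRT7* change was 0.59 (limma adjusted p = 0.00559). With CFPAC-1 fitted alone, the *KRT8* change had an adjusted p of 0.0508 in limma.

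Epithelial markers in CFPAC-1 summed to 1768 to 1998 RPKM in negative and 1124 to 1442 RPKM in positive cells, with 1 of 5 called lower and none higher. That gene was *CLDN4*, a tight junction claudin, which fell from 1402 ± 111 to 843 ± 138 RPKM (SD, n = 3, limma adjusted p = 0.0176), and its call was lost without the second negative or the first positive sample (adjusted p = 0.0626 and 0.0719). The sums of the fibroblast markers were 1.26 to 1.72 RPKM and 1.59 to 2.39 RPKM, and those of the endothelial markers 0.989 to 1.49 RPKM and 0.751 to 0.996 RPKM, with no gene of either list called. The leukocyte sums were 179 to 210 RPKM and 163 to 228 RPKM, with *PTPRC* and *CD3E* at no more than 3 reads. *CD14* of that list fell from 9.23 ± 0.535 to 3.19 ± 0.966 RPKM (limma adjusted p = 0.000977). The part of these lists in the CFPAC-1 result was not tested.

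**Figure D2:**
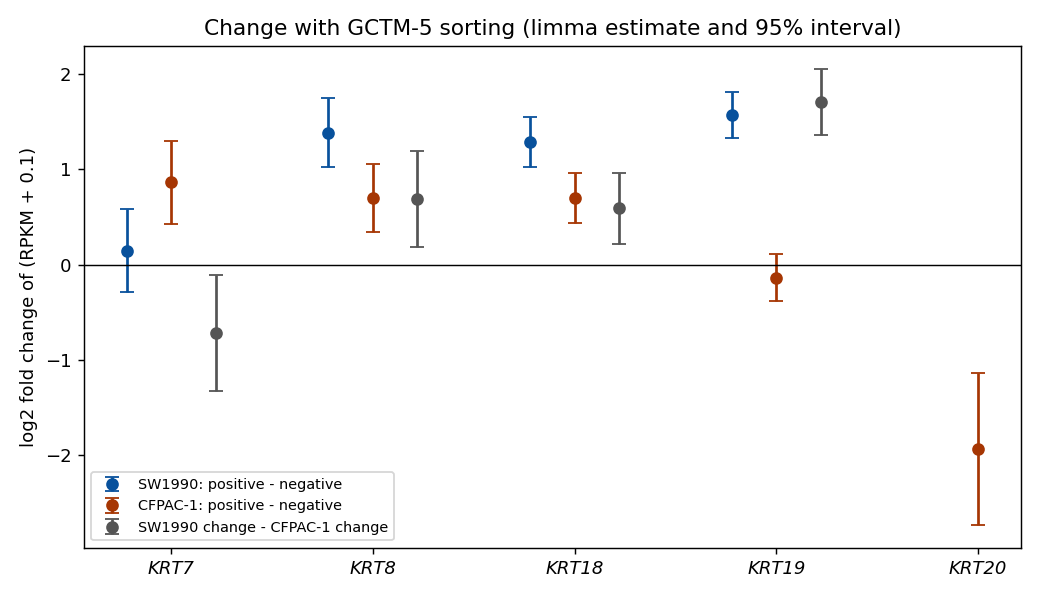
Log2 fold change of RPKM + 0.1 between positive and negative cells (y axis) for each keratin, with 95% intervals from limma, in SW1990, in CFPAC-1 and as the difference between the lines. *KRT20* has no reads in SW1990 and is drawn for CFPAC-1 alone, and the interval of *KRT19* lies far above 0 in SW1990 (1.33 to 1.81) and spans 0 in CFPAC-1.

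The difference between the lines in the change with sorting was tested as an interaction. *KRT19* differed by 1.71 on the log2 scale, with the larger change in SW1990 (95% interval 1.36 to 2.05, limma adjusted p = 2.22e-05). *KRT18* differed by 0.59 (SE 0.17, limma adjusted p = 0.0234) and *KRT8* by 0.69 (SE 0.23, limma adjusted p = 0.0451), both in the same direction. Of all genes, 9.16% differed in that direction and 17.8% in the other. The *KRT8* difference passed the test in 9 of 22 alternative settings and the *KRT18* difference in 19 of 22, against all 22 for *KRT19*. *KRT7* changed more in CFPAC-1, by a difference of -0.72 (95% interval -1.33 to -0.10) that did not pass the test (limma adjusted p = 0.0788). Without the second negative CFPAC-1 sample, or without the third, the *KRT19* difference alone was called higher. Without the second positive CFPAC-1 sample the *KRT7* difference was -0.88 and passed (limma adjusted p = 0.0359).

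The lines were then compared within each sorted population. In negative cells all 5 members differed, *KRT7* being higher in SW1990 and the others higher in CFPAC-1, where 40.7% of all genes were called higher in SW1990 and 28.2% lower. *KRT19* differed by -3.02 on the log2 scale (95% interval -3.26 to -2.77), so that SW1990 held 0.124 of the CFPAC-1 level (limma adjusted p = 6.30e-10). *KRT8* differed by -1.25 (limma adjusted p = 2.63e-05), *KRT18* by -0.87 (limma adjusted p = 3.82e-05) and *KRT7* by 0.68 (limma adjusted p = 0.00902). The CFPAC-1 mean of *KRT20* was 159-fold the mean SW1990 limit of 3 reads per library (0.0821 RPKM). This is a ratio of means, and single samples vary around it.

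In positive cells 32.9% of all genes were called higher and 29.3% lower in SW1990, and 3 members were lower in SW1990. *KRT19* differed by -1.31 (limma adjusted p = 1.02e-06) and *KRT8* by -0.56 (limma adjusted p = 0.0106). For *KRT20* the CFPAC-1 mean was 34.2-fold the mean SW1990 limit of 3 reads per library, again a ratio of means. *KRT18* differed by -0.28 (95% interval -0.55 to -0.02, limma adjusted p = 0.0562) and *KRT7* by -0.04 (95% interval -0.47 to 0.39, limma adjusted p = 0.877), neither of which passed. The sign for *KRT7* rested on single samples, as its difference was 0.23 without the third positive CFPAC-1 sample and 0.04 without the first positive SW1990 sample. Comparisons of the same sorted cells share samples with the comparisons within lines, so their values stand side by side and are not independent.

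The make-up of the keratin transcripts was computed over the 54 keratin genes of the table. The 5 members held 91.7 ± 0.96% (SD, n = 3) of summed keratin RPKM in negative SW1990 cells and 89.4 ± 2.33% in positive ones, and 93.7 ± 0.42% and 92.6 ± 1.19% in CFPAC-1. The summed keratin level was 1935 ± 195 RPKM in negative and 4761 ± 210 RPKM in positive SW1990 cells, and 5881 ± 384 RPKM and 7495 ± 721 RPKM in CFPAC-1. *KRT19* made up 18.3% and 22% of it in negative and positive SW1990 cells and 48.5% and 34.7% in the CFPAC-1 groups. *KRT7* made up 14.7% in negative and 6.64% in positive SW1990 cells, with an RPKM that overlapped between those groups, and 3.03% and 4.40% in CFPAC-1.

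**Figure D3:**
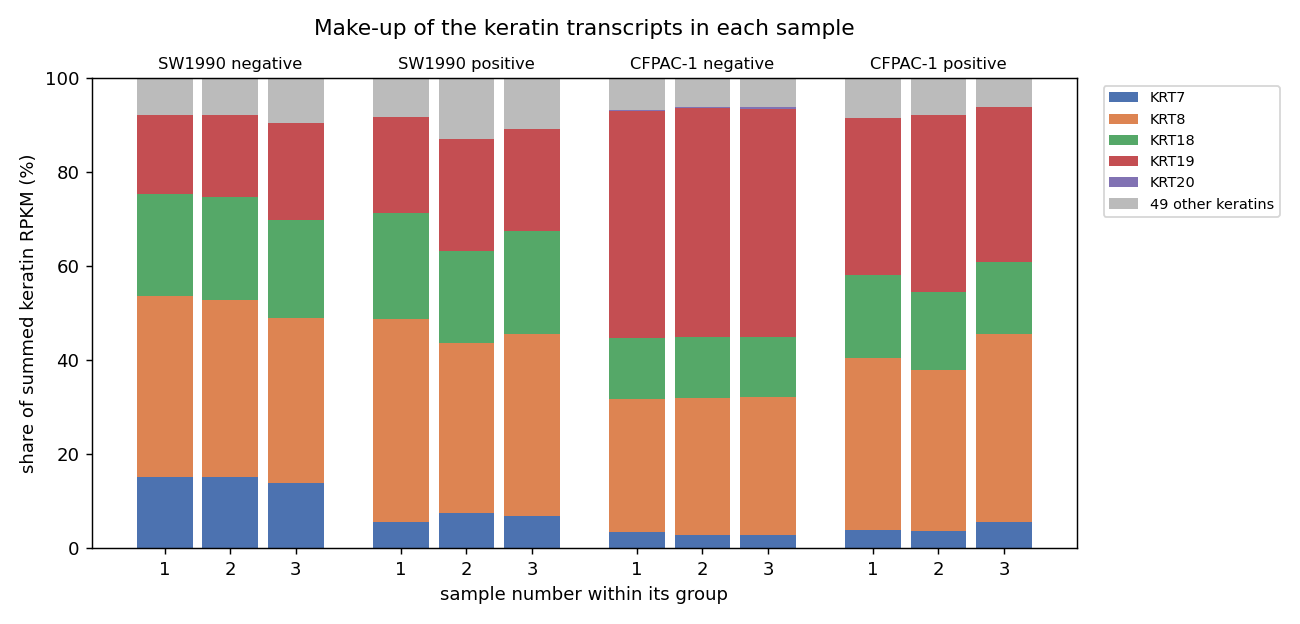
Share of summed keratin RPKM (y axis, percent) held by each member and by the 49 other keratins together, one bar per sample. *KRT19* takes the largest share in negative CFPAC-1 samples (48.5% on average). The share of *KRT7* is higher in negative SW1990 samples (14.7%) than in the other groups, but is below those of *KRT8*, *KRT18* and *KRT19* there.

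Since filaments need both types in pairs, the ratio of type II members (*KRT7* and *KRT8*) to type I members (*KRT18*, *KRT19* and *KRT20*) was taken for each sample. In SW1990 it was 1.31 ± 0.111 (SD, n = 3) in negative cells and 1.06 ± 0.0658 in positive cells. In CFPAC-1 it was 0.518 ± 0.00256 in negative cells and 0.810 ± 0.125 in positive cells. Positive and negative samples did not overlap in either line, and the ratio was lower in positive cells of SW1990 and higher in positive cells of CFPAC-1. An exact 2-sided permutation test gave p = 0.1 in each line, the smallest that 3 against 3 samples allow, so it could not reach 0.05. The ratio of *KRT8* to *KRT18* was 1.73 ± 0.0452 and 1.85 ± 0.0701 in SW1990 (exact permutation p = 0.1) and 2.24 ± 0.047 and 2.25 ± 0.316 in CFPAC-1 (exact permutation p = 1). Adjusted over these 4 tests the values were 0.133 for the first 3 and 1 for the last. In reads with no correction for length the ratios were higher, from 0.771 to 1.83 for type II to type I.

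**Figure D4:**
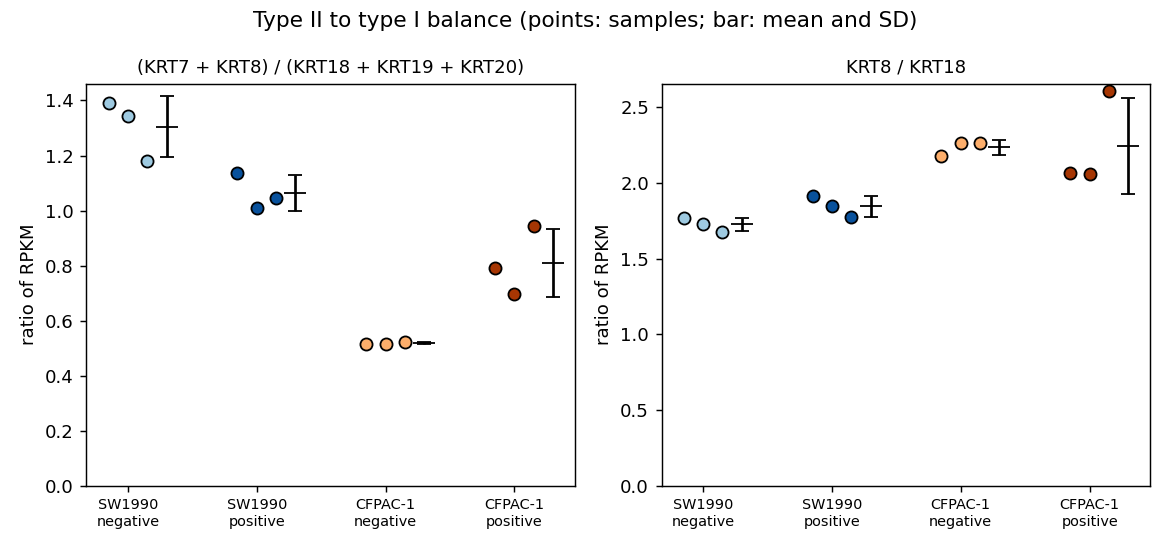
Ratio of RPKM of type II to type I members (left) and of *KRT8* to *KRT18* (right) in each sample, with the mean and SD as bars beside the points. Both axes start at 0, and the negative CFPAC-1 samples lie close together at the lowest type II to type I ratio (0.518).

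The lists that follow were chosen with earlier results of these data known, and some genes in them (*KRT6A*, *KRT6B*, *KRT81*, *KRT86*, *PKP2*, *EPPK1*, *GRHL1*, *GRHL2*, *GRHL3*, *ZEB1* and *ZEB2*) are named by the study from these libraries, so their direction is not independent evidence. Of the 49 other keratins, 16 had enough reads to compare in SW1990, and 11 rose and 1 fell in positive cells (median log2 fold change 1.77, against -0.04 over all genes). *KRT6A*, a keratin of activated and stratified epithelia, rose from 4.74 ± 0.695 to 60.8 ± 12.2 RPKM (SD, n = 3), by 3.64 on the log2 scale (limma adjusted p = 2.52e-07). *KRT6B*, its close paralogue, rose from 0.214 ± 0.103 to 3.48 ± 0.827 RPKM. Reads of such near-identical genes may be split between them, so both are uncertain. *KRT14*, a keratin of basal cells, was the gene that fell, from 0.756 ± 0.236 to 0.232 ± 0.133 RPKM (limma adjusted p = 0.0122). Over all genes 11.3% rose and 16.9% fell in this comparison.

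In CFPAC-1, 15 other keratins were compared, of which 6 rose and 2 fell (median log2 fold change 0.34, against 0.05 over all genes, of which 22.3% rose and 14.2% fell). *KRT6A* rose from 0.132 ± 0.0433 to 5.54 ± 1.04 RPKM. *KRT81*, a hair keratin with closely similar paralogues that may share its reads, rose from 56.4 ± 39.5 to 270 ± 74.2 RPKM (limma adjusted p = 0.000568). It also rose in SW1990, from 57.7 ± 4.39 to 265 ± 72.3 RPKM (limma adjusted p = 0.00101). It was the most abundant of the other keratins in both groups of positive cells. *KRT23* fell from 86.9 ± 12.4 to 35.7 ± 34.0 RPKM (limma adjusted p = 0.0297) and *KRT15* from 46.5 ± 8.48 to 25.0 ± 3.25 RPKM (limma adjusted p = 0.00311), as the type I member *KRT20* did. The *KRT23* groups overlapped, since the third positive sample held 74.9 RPKM and the lowest negative sample 73.0 RPKM. Without that positive sample *KRT23* fell by 2.43 on the log2 scale (limma adjusted p = 0.000896) in place of 1.69, and with any other single CFPAC-1 sample left out its call was lost (adjusted p up to 0.122). In SW1990 both rose, *KRT15* from 1.20 ± 0.283 to 5.58 ± 0.601 RPKM and *KRT23* from at most 5 reads per sample to between 8 and 25. The difference between lines was called for 9 of the 15, with 7 changing more towards positive cells in SW1990 (9.16% of all genes) and 2 less (17.8%), at a median of 1.09 against -0.15 over all genes.

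Desmosomal plaque proteins and plakins tie keratin filaments to the membrane. Of 12 such genes, 10 rose and none fell in positive SW1990 cells (median log2 fold change 1.24, against -0.04 over all genes, of which 11.3% rose and 16.9% fell). *PPL*, encoding periplakin, rose from 21.7 ± 4.23 to 106 ± 7.34 RPKM (limma adjusted p = 9.26e-07) and *JUP*, encoding plakoglobin, from 46.2 ± 7.41 to 193 ± 21.9 RPKM (limma adjusted p = 2.52e-07). In CFPAC-1, 4 of the 12 rose and none fell (median 0.19, against 0.05 over all genes, of which 22.3% rose and 14.2% fell), namely *DSP*, *EPPK1*, *PKP1* and *PKP2*. *PKP2*, a plakophilin, went from 6.92 ± 0.528 to 18.9 ± 3.50 RPKM and *PKP1* from at most 5 reads per sample to between 25 and 32. In that line *JUP* (log2 fold change 0.02) and *PPL* (-0.33) did not pass. The change differed between lines for 8 of the 12, 7 of them more towards positive cells in SW1990 (9.16% of all genes) and 1 less (17.8%), at a median of 0.94.

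Of 12 chaperones and regulators that bind keratins, 3 rose and 1 fell in SW1990 (median log2 fold change 0.08), where 11.3% of all genes rose and 16.9% fell. In CFPAC-1, 5 rose and 1 fell (median 0.31), where 22.3% of all genes rose and 14.2% fell. *SFN*, which encodes the 14-3-3 protein sigma, rose in both lines, going in SW1990 from 101 ± 3.45 to 307 ± 12.7 RPKM and in CFPAC-1 from 89.5 ± 3.96 to 172 ± 10.9 RPKM. *FAM83H*, which recruits casein kinase 1 to keratin filaments, rose 2.76-fold in SW1990 and 2.04-fold in CFPAC-1, and its change did not pass the test of a difference between lines. *YWHAZ*, another 14-3-3 gene, rose in SW1990 by 0.41 on the log2 scale. *HSPA8* and *TCHP* rose in CFPAC-1 by 0.55 and 0.63, and *HSPB1*, a small heat shock protein, fell by 0.44. *PRKCE*, a protein kinase C gene, fell in SW1990 by 0.48 and rose in CFPAC-1 by 0.53. The calls of *PRKCE* in SW1990 and of *HSPA8* in CFPAC-1 were lost with most single samples left out.

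Among the other intermediate filament genes, 7 were compared in SW1990, and 4 fell and 1 rose (median log2 fold change -0.76), where 16.9% of all genes fell and 11.3% rose. *VIM*, which encodes the vimentin of mesenchymal cells, fell from 1208 ± 83.2 to 245 ± 94.9 RPKM (limma adjusted p = 1.45e-05). The other 3 that fell were *DES*, at 26 to 38 reads in negative and 4 to 10 reads in positive samples, *NES* and *SYNM*. *LMNB1*, a nuclear lamin gene, rose by 0.68. In CFPAC-1, 6 were compared (median 0.46) and 3 rose, where 22.3% of all genes rose, *LMNB1* by 1.21, *LMNB2* by 1.25 and *SYNM* by 0.61. There *VIM* held 598 ± 104 RPKM in negative cells and 463 ± 97.0 RPKM in positive cells and did not pass (limma adjusted p = 0.235).

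The transcription factor list joined genes that favour epithelial identity with genes that favour mesenchymal identity. In SW1990, 9 of 19 rose and 5 fell (median log2 fold change -0.08), where 11.3% of all genes rose and 16.9% fell. *OVOL1*, a repressor found in epithelia, rose from 0.461 ± 0.223 to 8.69 ± 1.16 RPKM, and *GRHL2*, a grainyhead-like activator of epithelial genes, from 4.70 ± 1.01 to 33.0 ± 1.43 RPKM. *ZEB1*, a repressor of epithelial genes, fell from 32.0 ± 0.0686 to 2.64 ± 0.307 RPKM (limma adjusted p = 1.48e-08), and its paralogue *ZEB2* from 1.00 ± 0.178 to 0.0776 ± 0.031 RPKM. The other 3 that fell were *JUN*, *ETS1* and *SNAI1*. The *JUN* call was lost whichever SW1990 sample was left out (limma adjusted p 0.0646 to 0.142). In CFPAC-1, 6 of 19 rose and 5 fell (median 0.05), where 22.3% of all genes rose and 14.2% fell. *ZEB1* fell there from 6.79 ± 0.851 to 2.51 ± 0.0433 RPKM, *GRHL2* rose from 13.7 ± 1.08 to 28.6 ± 5.09 RPKM, and *GRHL1* rose by 1.18 on the log2 scale. The genes that fell there included *ELF3*, *EHF* and *KLF5*, epithelial factors that each rose in SW1990. *SNAI1*, a repressor of epithelial genes that fell in SW1990 from 2.37 ± 0.258 to 0.631 ± 0.256 RPKM, rose in CFPAC-1 from 1.47 ± 0.479 to 2.64 ± 0.582 RPKM (limma adjusted p = 0.0377). Its groups overlapped in CFPAC-1 and the call was lost each time 1 of 4 samples was left out (adjusted p up to 0.143).

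**Figure D5:**
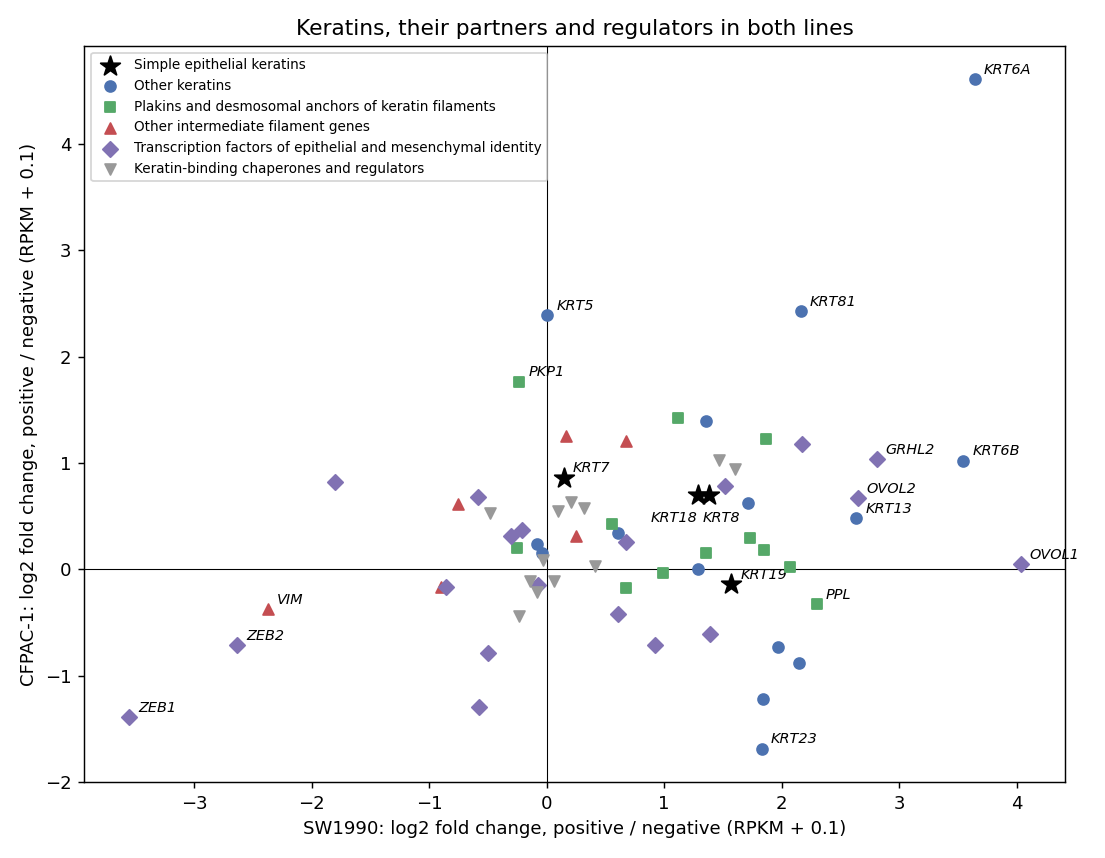
Log2 fold change with sorting in SW1990 (x axis) against CFPAC-1 (y axis), on the RPKM + 0.1 scale, for the keratins, their anchors, their regulators, other intermediate filament genes and transcription factors compared in both lines. *KRT8* and *KRT18* lie at similar heights in the upper right, *KRT19* lies on the right near 0 in CFPAC-1, and *ZEB1* is at the lower left.

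For each member, the 3 genes with the most similar pattern were taken from 13266 other genes by Pearson's r of log2(RPKM + 0.1) over the 12 samples. These samples come from 2 lines and share their groups, so r is a description. *KRT8* and *KRT18* were each other's neighbours (r = 0.978), *KRT18* being closest to *KRT8* and *KRT8* second to *ANXA3* (0.981) for *KRT18*. The other neighbours of *KRT8* were *H2AFY* (0.970) and *MREG* (0.968), and *SERPINB5* (0.977) was the remaining neighbour of *KRT18*. *KRT19* was closest to *MPP7* (0.998), *PLS1* (0.995) and *ENPP5* (0.995). *MPP7* was lower throughout, at 0.276 ± 0.0308 and 2.01 ± 0.276 RPKM (SD, n = 3) in negative and positive SW1990 cells and 11.4 ± 1.13 and 8.76 ± 0.347 RPKM in CFPAC-1. *KRT20* was closest to *LOC255130* (0.994), *IL10* (0.994) and *NPY5R* (0.992), which had at most 0.0791 RPKM in any SW1990 sample. *KRT7* was closest to *TMEM160* (0.951), *C8orf82* (0.948) and *HYOU1* (0.940), and its r with the other members ran from -0.513 with *KRT20* to 0.232 with *KRT18*.

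On GRCh37 the type II genes and *KRT18* lie on chromosome 12, *KRT7* at chr12:52626304-52645970 (plus strand), *KRT8* at chr12:53290971-53343738 (minus strand) and *KRT18* at chr12:53342655-53346690 (plus strand). *KRT19* (chr17:39679869-39684560) and *KRT20* (chr17:39032141-39041494) lie on the minus strand of chromosome 17. *KRT8* and *KRT18* overlap by 1084 bases on opposite strands in the GENCODE annotation, *KRT7* overlaps *KRT86* by 2887 bases on the same strand, and the use of strand in the counting is not given in the sources used here. The labels name a strand-specific library kit and the paper another kit, so reads of the *KRT8* and *KRT18* overlap may or may not be told apart. GENCODE names 51 pseudogenes of *KRT8*, 68 of *KRT18* and 5 of *KRT19*. The deposited table lists 1 pseudogene of each, with at most 1 read in any sample, and how reads shared with pseudogenes were counted is not given, so the levels of these 3 genes carry that uncertainty.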

How the data were processed

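RNA-seq of SW1990 and CFPAC-1 cells sorted with GCTM-5 was analysed in 12 samples, grouped by line and antigen from the labels. The deposited values are RPKM, which the authors computed with QuasR from alignments to hg19/GRCh37 by dividing counts by library size and gene length. The counting annotation, strand use and QuasR version are not given in the sources used here. The labels name a strand-specific library kit, the paper another kit and another antibody label.

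Library totals and whole reads were recovered from the RPKM values with GENCODE lengths of single-exon genes, for all 19654 genes above 0 (tolerance 0.01 of a read). The 16236 genes whose RPKM averaged 0.1 or more over all samples were fitted as log2(RPKM + 0.1) with limma 3.58.1 in R 4.3.3, 4 group means sharing 1 spread and an intensity trend. Tests were 2-sided, with Benjamini-Hochberg adjustment over all genes. TCC, named by the study for counts, was not used here. Groups with at most 3 reads in each sample were taken as at the limit of depth. Scripts were tested on simulated data. Ratios were tested by exact permutation in Python 3.11.15 with scipy 1.17.1.

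Named genes were the members, the 2 highest and 2 lowest log2 fold changes called per list and comparison, all called genes of a direction with 5 or fewer, and the 3 genes most alike per member at a mean RPKM of at least 1. Members and lists were chosen with earlier results of these data known. Alternatives were pseudocounts of 1 and 0.01, no filter or a mean RPKM of at least 1, median centring, quantile normalization, fits of the compared samples alone, no trend, voom on recovered reads, a replicate block, reads in place of RPKM for the ratios, and each sample left out. The replicate block between lines was added after seeing the data. No identical libraries were found. Some genes of the lists are not reported here.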

Additional observations from a re-analysis of the deposited data

Results flagged for a closer look

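The difference between SW1990 and CFPAC-1 in the change with sorting was tested with limma, at an adjusted p under 0.05. Among the members and the named genes of the other lists, 3 members and 31 other genes passed and are given here. Further genes of those lists passed but are not named, so the genes below are fewer than the counts per list given earlier. Of all genes, 9.16% differed towards a higher value in SW1990 and 17.8% in the other direction. Most named genes were picked for large called changes with sorting in these same samples. The number of them that passed is therefore not independent evidence and is not comparable with those shares. Values are the log2 change in SW1990 minus that in CFPAC-1. Among the simple epithelial keratins the difference was 1.71 for *KRT19*, 0.69 for *KRT8* and 0.59 for *KRT18*. Among other keratins it was 3.52 for *KRT23*, 3.03 for *KRT15*, 2.53 for *KRT6B* and -0.96 for *KRT6A*. The value of *KRT6B* rests on at most 1 read per sample in negative CFPAC-1 cells and 3 to 8 reads in positive ones, and that of *KRT23* on at most 5 reads per sample in negative SW1990 cells. Without the third positive CFPAC-1 sample it was 4.26 for *KRT23*.

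For genes that anchor keratin filaments the difference was 2.63 for *PPL*, 2.04 for *JUP* and -2.0 for *PKP1*. For regulators it was 0.66 for *SFN* and -1.01 for *PRKCE*. For other intermediate filament genes it was -1.99 for *VIM*, -1.37 for *SYNM*, -1.09 for *LMNB2* and -0.53 for *LMNB1*. The change of *VIM* was -2.37 in SW1990 and -0.38 in CFPAC-1, and that of *SYNM* -0.76 and 0.61. *LMNB1* rose in both lines, by less in SW1990. For transcription factors with the larger change towards positive cells in SW1990 it was 3.99 for *OVOL1*, 1.99 for *ELF3*, 1.77 for *GRHL2*, 1.63 for *EHF* and 1.03 for *KLF5*. In the other direction it was -2.62 for *SNAI1*, -2.17 for *ZEB1*, -1.92 for *ZEB2* and -1.26 for *ETS1*.

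The epithelial markers differed by 3.84 for *CLDN4*, 3.48 for *ESRP1*, 3.12 for *EPCAM*, 2.90 for *CLDN7* and 2.73 for *CDH1*. The fibroblast markers differed by -3.76 for *PDGFRB*, -2.70 for *LUM* and -1.05 for *COL1A1*, and the leukocyte marker *CD68* by -1.21. Over all genes the median difference was -0.15.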

How the results depend on the processing

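Of 23 member values, 17 kept their direction and their side of the threshold in every alternative, as did 369 of 392 values in all. The exceptions concern *KRT8* in CFPAC-1 with the line fitted alone, the differences between lines for *KRT8*, *KRT18* and *KRT7*, and the comparison of positive cells for *KRT18* and *KRT7*. Their causes were not tested. With quantile normalization 1 member in place of 3 differed in the direction of a larger change in SW1990, and leaving out each sample in turn gave 1 to 3, with 0 to 1 in the other direction. The adjusted p of the *KRT8* difference ran from 0.00974 to 0.103 in limma. In positive cells *KRT18* passed with a mean RPKM of at least 1 (adjusted p = 0.0492), voom (-0.36, adjusted p = 0.00988) and without the first positive SW1990 sample (-0.36, adjusted p = 0.0313). Leaving out each sample in turn moved the *KRT7* difference there between -0.20 and 0.23, and it was 0.04 without the first positive SW1990 sample and 0.23 without the third positive CFPAC-1 sample.

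With reads in place of RPKM, members held 89.0% of keratin in negative SW1990 cells, 92.0% in negative CFPAC-1 cells and 91.2% in positive ones. The share in reads for positive SW1990 cells is not given here. Type II to type I was then 1.83 and 1.55 in negative and positive SW1990 cells and 0.771 and 1.20 in CFPAC-1, and *KRT8* to *KRT18* was 2.55, 2.73, 3.30 and 3.31, since the lengths differ.

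Median centring moved the median of all genes from -0.15 to 0.00 for the difference between lines and from 0.19 to 0.01 for negative cells. Of genes called in CFPAC-1, 61.1% were higher as deposited, 47.8% after median centring, 50.0% after quantile normalization and 50.3% with voom. For the difference between lines these were 34.0%, 50.0%, 47.0% and 43.5%.

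The paper describes triplicate sorts, and the labels do not say which positive and negative samples came from the same sort. Deviations of same-numbered samples had r of 0.0163 to 0.185 in SW1990, against -0.254 to 0.162 for samples of unlike number. In CFPAC-1 the r values were -0.0593 to 0.00126 and -0.0326 to 0.0423. So few values cannot decide whether the samples were paired, and the main fit did not use the number. A replicate block changed no member's call. It moved the genes called higher from 1831 to 1799 in SW1990 and from 3622 to 3534 in CFPAC-1. Not every sample correlated best with the sample of its own number.

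Of the named genes of the other lists, 42 were called in SW1990, 29 in CFPAC-1 and 31 for the difference between lines. Leaving out 1 sample lost the call at least once for *JUN*, *KRT14*, *KRT23*, *NES*, *PRKCE* and *YWHAZ* in SW1990 (limma adjusted p up to 0.163). The *JUN* call was lost whichever SW1990 sample was left out, and the *PRKCE* call with any but the third negative sample. In CFPAC-1 it did so for *CLDN4*, *DSP*, *ELF3*, *HSPA8*, *KRT23*, *KRT6B*, *PRKCE*, *SNAI1* and *SYNM* (up to 0.143), and for the difference it did so for *CD68* and *KRT6A* (up to 0.0801).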
